A study of Mus musculus with 15 samples.

Results

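Mitochondrial ribosomal proteins were followed in Ba/F3-beta cells, a mouse pro-B cell line that needs the cytokine IL-3 to grow. The members are all genes whose symbol is Mrpl (named for the large subunit) or Mrps (for the small one) followed by a number. The Affymetrix murine U74 set carried 129 probe sets for these genes, of 36701 non-control probe sets in all. They stood for 74 genes, of 15964 genes with a probe set of their own, and 46 of the 74 were Mrpl and 28 Mrps genes. Another 6 probe sets that were annotated to a mitochondrial ribosomal protein together with a second gene were not used, and Mrpl30 and Mrps18b were represented only there.

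The study asked which IL-3 target genes depend on the transcription factor Stat5. Cells transfected with Stat5 siRNA (against both Stat5A and Stat5B) received IL-3 for 30 min or 2 h. Cells transfected with a scrambled control siRNA received IL-3 for 30 min or 2 h, or no IL-3. Each of these 5 conditions was hybridised once to each of the 3 array designs, U74A, U74B and U74C, giving 15 arrays. Stat5 siRNA was analysed here only together with IL-3, so its effect on unstimulated cells has no value. All cells were transfected, all came from 1 established line, and no array has a replicate. Values are therefore given per array, differences are selected by their size, and no comparison below has a test.

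The mitochondrial ribosome sits in the mitochondrial matrix and translates the few messenger RNAs of the mitochondrial genome, which encode core membrane subunits of the respiratory chain and of ATP synthase. Its 2 ribosomal RNAs come from mitochondrial DNA, but every protein is encoded in the nucleus, made in the cytosol and imported. Some of these proteins belong to families shared with the bacterial ribosome, and others are particular to mitochondria. Blood cells that start to grow need more mitochondria, and factors of the NRF1, ETS and MYC families are known to act on the promoters of such genes in mammalian cells.

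The values are MAS5 signals, a linear measure of probe set brightness with arbitrary units. Their trimmed mean lay between 150.037 and 150.097 on all 15 arrays. A signal of 119.808 served as the floor of detection, because as many non-control probe sets (14553) reached it on their highest array as passed the filters of the study. The transfection was visible in the targets. The Stat5a probe sets can bind other transcripts, and the one with the higher signal had 50.6% of the control siRNA level at 30 min and 53.6% at 2 h. Stat5b on U74B had 33.2% and 71.3%, from signals of 166 and 126 with Stat5 siRNA and 499 and 177 with control siRNA. The control siRNA signal of Stat5b was thus lower at 2 h, and its Stat5 siRNA signal there was close to the floor. All 3 IL-3 receptor chains listed as markers reached the floor. Of 10 pro-B and B lineage markers on the arrays only Ptprc and Cd79b did, while Cd79a, Igll1, Vpreb1, Rag1, Ebf1 and Pax5 stayed under it, so most of the defining B lineage markers were not above the floor in this pro-B line. Of the markers of other cells, 0 of 9 myeloid and mast cell, 1 of 5 T and NK cell (Nkg7), 1 of 7 fibroblast and epithelial (Epcam) and 4 of 5 erythroid and megakaryocyte genes reached the floor. The summed signal of the last list was 6390 at 30 min and 5865 at 2 h with Stat5 siRNA, against 4372 and 3772 with control siRNA and 4863 without IL-3. Its part in the differences between the siRNAs below was not tested.

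Of the 129 probe sets, 88 reached the floor on at least 1 array: 61 of 76 on U74A, 16 of 29 on U74B and 11 of 24 on U74C. Those whose name ends in _f_at, _r_at or _i_at (33 of 129) can bind other transcripts and were used only where a gene had no other, as for Mrpl18. A gene took the median of its measured probe sets, a probe set being measured in a comparison where at least 1 of the 2 arrays reached the floor. In this way 63 of the 74 genes had a value in at least 1 comparison. The other 11 had none: Mrpl11, Mrpl14, Mrpl19, Mrpl42, Mrpl46, Mrpl49, Mrpl53, Mrpl55, Mrps5, Mrps16 and Mrps27. This says only that their probe sets lay under the floor, or, for Mrpl46 and Mrps27, that those above it were of the cross-binding kind. A signal below the floor was set to the floor before ratios were taken, so a fold change with 1 such signal is a bound and is written "at least". Passing the floor can rest on the higher of the 2 arrays, so no count below speaks for all 74 genes.

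The mitochondrial ribosomal protein genes were steady across the 5 conditions. The difference between the highest and the lowest condition had a median of 0.35 on the log2 scale over 63 genes, and 13 of them (20.6%) spanned 1.5-fold or more. The same difference over all 8235 measured genes had a median of 0.47, and 34.3% spanned 1.5-fold or more. Both sets pool the array designs, and the part of the design in this difference was not tested. Only Mrps35 spanned 2-fold or more (1.59% of members, against 8.33% of all genes). The span of a gene with signals below the floor is understated, since these were set to the floor. In a whole culture, a lower signal for these genes cannot be told apart from a smaller share of the cells that make them.

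After 30 min of IL-3, none of 59 measured members was 1.5-fold or more above or below unstimulated control siRNA cells. Among all 7709 measured genes, 2.78% were that much higher and 2.13% that much lower. The members' median log2 ratio was −0.041, with 23 of 59 above 0, against a median of −0.0067 over all genes. The ratios ran between −0.41 and 0.47.

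Even the highest members were therefore small differences. Mrps17, a small subunit protein that binds ribosomal RNA early in bacterial assembly, had signals of 744 at 30 min and 539 without IL-3, a log2 ratio of 0.47. Mrps26 and Mrps34, both proteins found only in mitochondrial small subunits, had ratios of 0.34 and 0.30. Mrps18a, named for the small subunit but located in the large one, had 0.32 in the probe set that gave its value, and the large subunit gene Mrpl15 had 0.31. These 5 genes were all among the higher ones at 2 h too, with log2 ratios of 0.51, 0.46, 0.51, 0.43 and 0.57 in that order, against the same unstimulated arrays. Mrpl41 (0.30) is a bound over 2 probe sets that disagree and is described further on.

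The lowest members at 30 min were Mrpl16, Mrps21, Mrpl27 and Mrps33. Mrpl16, a large subunit protein near the central protuberance, had signals of 667 at 30 min and 884 without IL-3, and its log2 ratio was −0.41. Mrps21 had −0.36, and Mrpl27, whose bacterial relative reaches into the peptidyl transferase centre, had −0.35. Mrps33, particular to mitochondria, also had −0.35. At 2 h these genes had ratios of −0.36, −0.21, −0.27 and −0.29 in the same order, so each lay below the unstimulated value at both times, which share that unstimulated array.

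**Figure D1:**
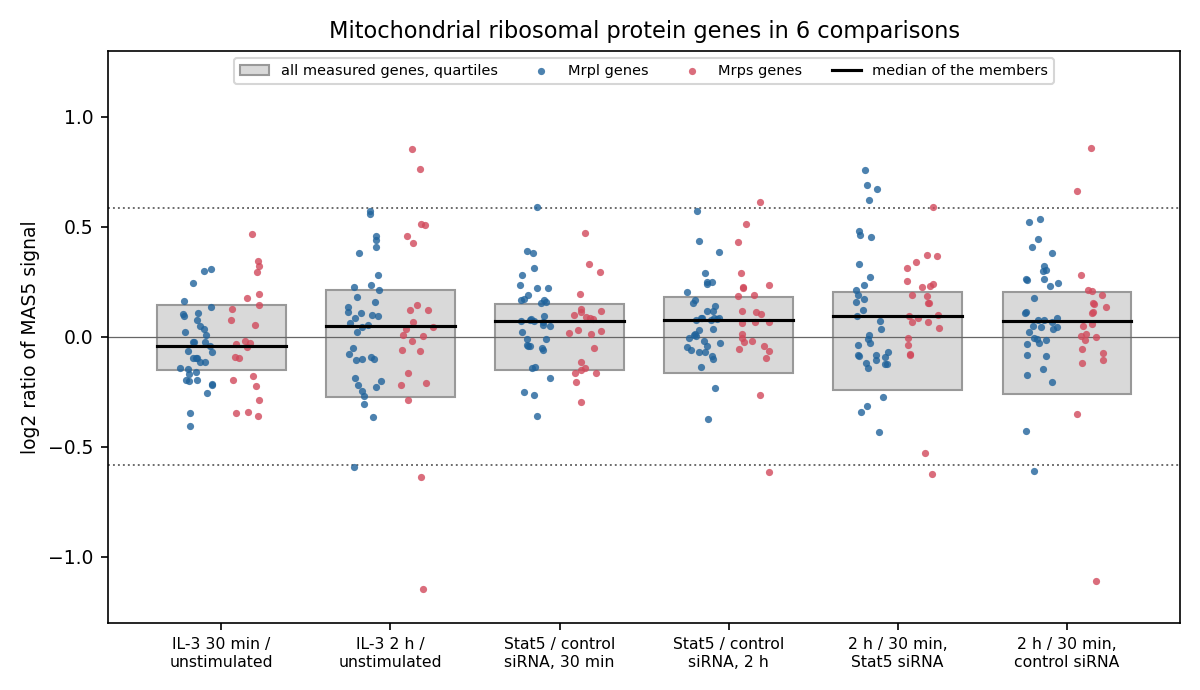
Each point is 1 measured member gene, with its log2 ratio of MAS5 signal on the vertical axis and the 6 comparisons along the horizontal axis, Mrpl genes in blue and Mrps genes in red. Grey boxes span the quartiles of all measured genes, black lines are the members' medians and dotted lines mark 1.5-fold. At 30 min of IL-3 no point lies outside the dotted lines, and at 2 h the lowest point, Mrps35, lies at −1.14.

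After 2 h of IL-3 the members spread further apart, as did all genes, while their centre stayed near 0. The distance between the quartiles was 0.34 for the members, against 0.27 at 30 min. Over all genes it was 0.49, against 0.30. Of 60 measured genes, 2 were 1.5-fold or more higher (Mrps6 and Mrps2) and 3 were 1.5-fold or more lower (Mrps35, Mrps9 and Mrpl45). Of all 7846 measured genes, 7.89% were that much higher and 8.27% that much lower, a background that pools the array designs. The members' shares of 3.33% and 5% lie under it. In either direction, 3 of 52 member probe sets passed 1.5-fold on U74A, beside 12.8% of its probe sets. On U74B 3 of 12 did, beside 20.8%, and on U74C 0 of 3, beside 21.0%. The part of the design in the members' shares was not tested. At the 2-fold threshold the study used, only Mrps35 was lower, where 1.61% of all genes were. The members' median was 0.049 with 36 of 60 above 0, while the median over all genes was −0.033. When arrays were scaled to a common median, the members' median turned to −0.011 and that of all genes to −0.063. The members' median thus stayed above that of all genes, but its sign depends on the scaling, so no direction is drawn from it.

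Mrps35 encodes a small subunit protein that has no bacterial counterpart and lies in the head region of the subunit. Its probe set on U74B had signals of 391 without IL-3, 382 at 30 min and 177 at 2 h in control siRNA cells. In Stat5 siRNA cells it had 417 at 30 min and 270 at 2 h. The 2 h arrays were the lowest with either siRNA, and the 30 min signals stayed close to the unstimulated one. The 2 h signal was 2.21-fold lower than the unstimulated one (log2 ratio −1.14).

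Mrps9, a small subunit protein of the bacterial family whose tail reaches toward the decoding site in bacteria, was also read on U74B. It had 316 without IL-3, 258 at 30 min and 203 at 2 h in control siRNA cells, and 358 at 30 min and 248 at 2 h in Stat5 siRNA cells. Its signal was lower at each later time in control siRNA cells, and both Stat5 siRNA signals were above those of control siRNA cells at the same time. The ratio at 2 h to no IL-3 was −0.64 on the log2 scale, 1.56-fold lower.

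Mrpl45 encodes a large subunit protein at the exit of the tunnel through which new proteins leave toward the inner membrane. Its probe set on U74A had 324, 328 and 215 in control siRNA cells at 0, 30 min and 2 h, and 315 and 254 in Stat5 siRNA cells at 30 min and 2 h. As with Mrps35, the 2 h arrays were the low ones. Its 2 h value was 1.51-fold lower than the unstimulated value (−0.59), just past the threshold. A second, cross-binding probe set of Mrpl45 that did not enter this value had a ratio of −0.39 for the same arrays.

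Mrps6 and Mrps2 went the other way. Mrps6, a small subunit protein of the bacterial family on the platform of the subunit, had 211, 241 and 381 in control siRNA cells at 0, 30 min and 2 h, and 219 and 249 in Stat5 siRNA cells at 30 min and 2 h. The single high array was the 2 h control siRNA one, which was 1.81-fold above the unstimulated array (0.86). Mrps2, a bacterial-family protein between head and body of the small subunit, had 128, 107 and 217 in control siRNA cells, and 151 and 227 in Stat5 siRNA cells, at the same times. Here both 2 h arrays were high and the 2 h value was 1.69-fold above the unstimulated one (0.76), although all signals at 0 and 30 min lay close to the floor.

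**Figure D2:**
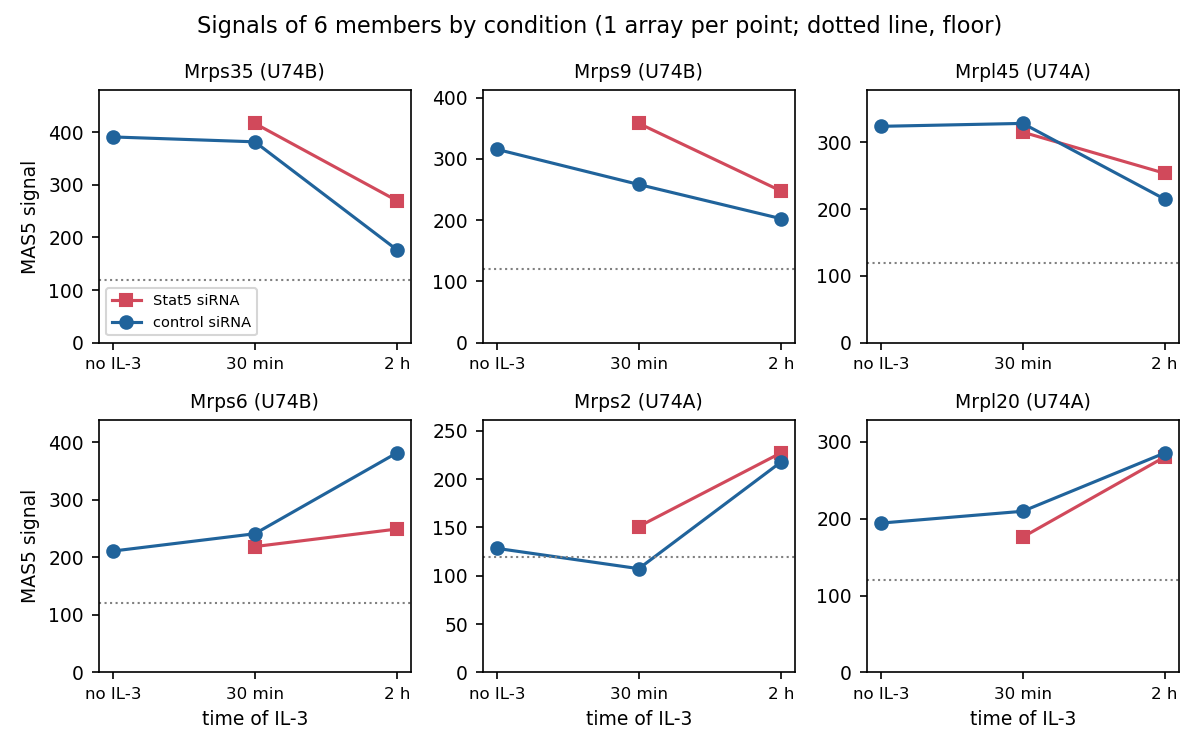
MAS5 signal (vertical axes, from 0) of 6 members by time of IL-3, 1 array per point, with red squares for Stat5 siRNA, blue circles for control siRNA and the floor of 119.808 as a dotted line. Mrps35 and Mrpl45 have their lowest signals at 2 h with both siRNAs, while Mrps6 is high at 2 h only with control siRNA (381, against 249 with Stat5 siRNA).

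Just under the 1.5-fold line lay genes of both subunits. Mrpl15 had a log2 ratio of 0.57 and Mrpl20, whose bacterial relative is needed for large subunit assembly, had 0.56. Mrps17 and Mrps34 followed with 0.51 each. Mrpl16 (−0.36) was the lowest member short of the line. With the floor doubled, which bounds the ratios of dim genes, Mrps35 (−0.71) and Mrps6 (0.67) remained past 1.5-fold, while Mrps9 (−0.40) and Mrpl45 (−0.44) did not and Mrps2 had no value. The remaining members lay between Mrpl1, with −0.30, and Mrpl36, with 0.46.

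**Figure D3:**
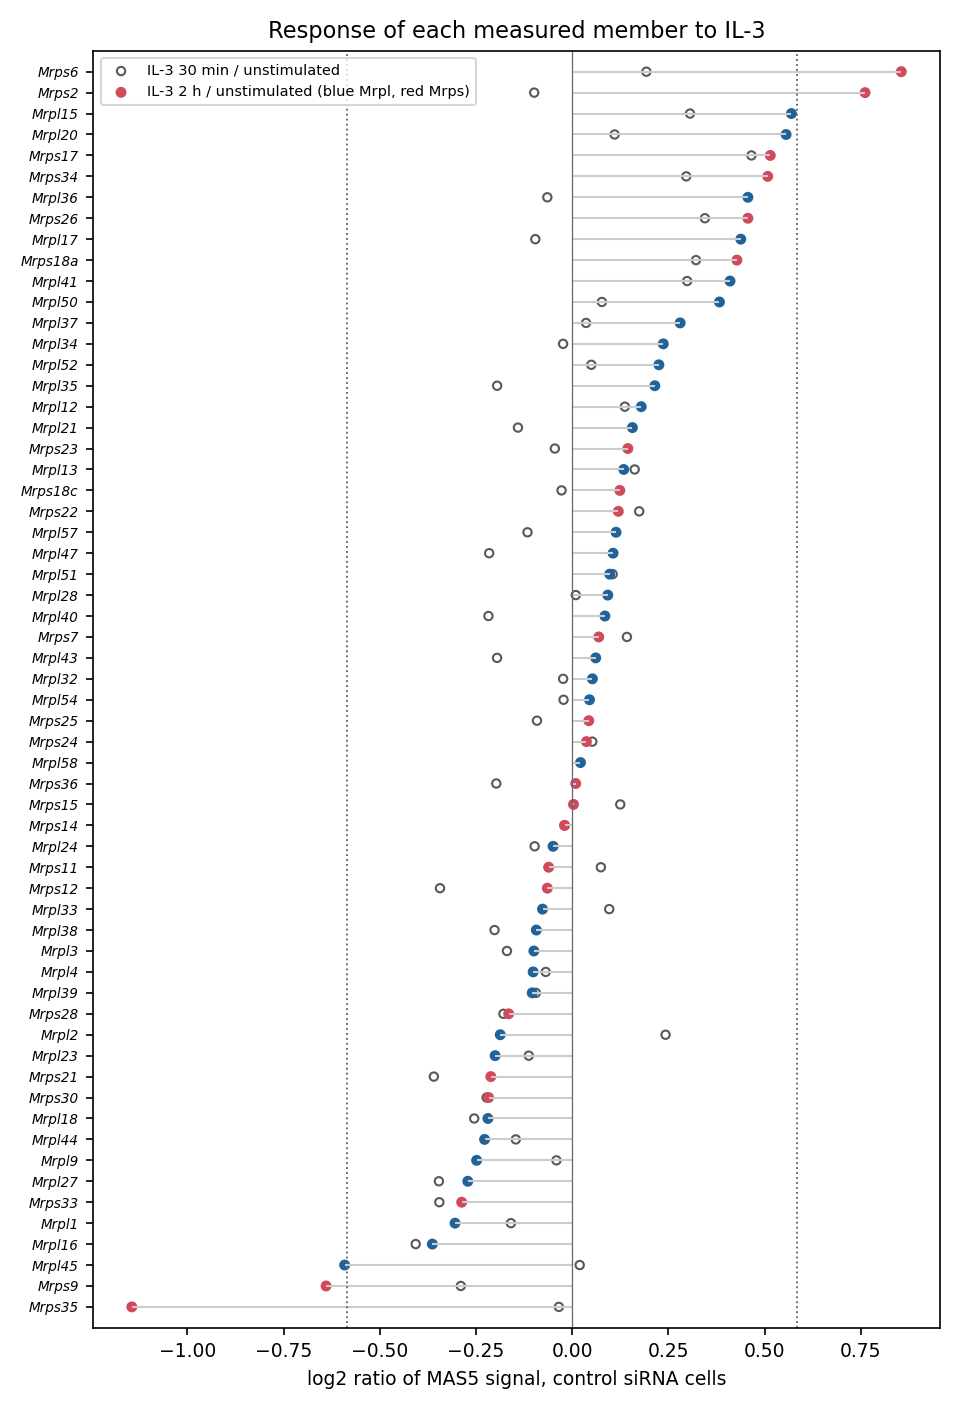
Log2 ratios of MAS5 signal in control siRNA cells (horizontal axis) for the members measured at 2 h of IL-3, ordered by the 2 h value. Filled points are 2 h over unstimulated (blue Mrpl, red Mrps), open points 30 min over unstimulated, and dotted lines mark 1.5-fold; Mrps6 (0.86) is at the top and Mrps35 (−1.14) at the bottom.

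Promoters of the members with the largest 2 h ratios among those with an entry, which Mrps35 is not, are shown to let their sequence be set beside the opposite directions of these genes. Among the 65 members with an entry, 4 are printed by size of that ratio (Mrps6, Mrps2, Mrps9 and Mrpl45), and Mrpl17 was added after the motif search as the 1 member with both an NRF1 and an ETS core. Each run is the 250 bases upstream of the annotated start in RefSeq (GRCm38.p6), 5′ to 3′ on the strand of the gene, and capitals mark motif matches. Mrps6 lies at chr16:92058086-92058335 on the plus strand, Mrps2 at chr2:28467816-28468065 (plus), Mrps9 at chr1:42850983-42851232 (plus), Mrpl45 at chr11:97315466-97315715 (plus) and Mrpl17 at chr7:105811088-105811337 (minus).
Mrps6: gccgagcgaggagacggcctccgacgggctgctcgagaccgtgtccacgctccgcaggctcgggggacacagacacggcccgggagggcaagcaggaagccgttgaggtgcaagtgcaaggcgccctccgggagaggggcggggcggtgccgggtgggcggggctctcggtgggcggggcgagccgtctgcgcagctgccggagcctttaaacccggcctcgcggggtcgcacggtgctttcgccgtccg
Mrps2: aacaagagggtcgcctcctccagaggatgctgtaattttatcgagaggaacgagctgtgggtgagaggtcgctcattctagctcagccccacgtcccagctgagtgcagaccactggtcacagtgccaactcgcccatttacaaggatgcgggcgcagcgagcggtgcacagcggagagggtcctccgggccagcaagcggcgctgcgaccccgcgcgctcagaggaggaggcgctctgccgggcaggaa
Mrps9: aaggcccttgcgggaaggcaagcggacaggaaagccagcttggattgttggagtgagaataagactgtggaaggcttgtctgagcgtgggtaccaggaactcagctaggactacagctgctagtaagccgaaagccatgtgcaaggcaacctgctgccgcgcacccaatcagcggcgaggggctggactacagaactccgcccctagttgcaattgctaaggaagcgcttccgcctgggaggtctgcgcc
Mrpl45: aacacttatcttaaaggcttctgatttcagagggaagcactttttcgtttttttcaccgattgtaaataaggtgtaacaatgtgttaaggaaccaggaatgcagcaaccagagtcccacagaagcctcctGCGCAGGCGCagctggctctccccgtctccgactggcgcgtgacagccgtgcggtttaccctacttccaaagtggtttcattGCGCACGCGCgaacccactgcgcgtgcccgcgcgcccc
Mrpl17: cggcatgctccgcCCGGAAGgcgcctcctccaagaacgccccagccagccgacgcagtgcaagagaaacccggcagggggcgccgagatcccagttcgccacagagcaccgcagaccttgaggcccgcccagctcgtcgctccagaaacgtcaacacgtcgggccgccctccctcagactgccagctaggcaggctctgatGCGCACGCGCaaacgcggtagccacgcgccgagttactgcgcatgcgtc

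4 motifs were searched on both strands of these windows: the E-box CACGTG bound by MYC and related factors, a core of the NRF1 site, an ETS core CCGGAAG and a STAT core TTCNNNGAA. The capitals of Mrpl45 show matches to the NRF1 core, and the 2 matches in Mrpl17 lie apart from each other. The Mrps6, Mrps2 and Mrps9 windows hold none of them, Mrpl45 holds 2 NRF1 cores and Mrpl17 holds 1 NRF1 and 1 ETS core. Mrps6 and Mrps2, higher at 2 h, and Mrps9, lower at 2 h, are thus alike in having no match, which says only that these letters are not in these windows.

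Over the 65 members with a promoter entry, an ETS core was found in 17 (26.2%), against 7.83% of all 27025 promoters and 17.2% of the promoters of measured genes. An NRF1 core was found in 9 (13.8%), against 4.23% and 10.5%. The E-box was found in 5 (Mrpl2, Mrpl20, Mrpl36, Mrpl37 and Mrps18c; 7.69%), against 6.86% and 9.97%, and the STAT core in 4 (Mrpl42, Mrpl50, Mrps22 and Mrps25; 6.15%), against 8.13% and 7.17%. Of 30 cytosolic ribosomal protein genes with an entry, 10 had an ETS core, 0 an NRF1 core, 3 an E-box and 1 a STAT core. The 65 members include genes that were not measured, so the share of measured genes is not a like background. These shares are descriptions of the windows and not of binding. Of the 4 members with a STAT core, Mrpl42 was not measured and the others had log2 ratios at 2 h, Stat5 over control siRNA, of 0.17 (Mrpl50), 0.51 (Mrps22) and 0.23 (Mrps25), and at 30 min of −0.19, 0.09 and 0.30 in the same order.

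With Stat5 siRNA, the members stayed close to control siRNA cells at 30 min of IL-3. Of 59 genes, 1 (Mrpl27) was 1.5-fold or more higher and 0 were lower, beside a background of 1.95% higher and 2.2% lower among 7687 genes. Their median was 0.070 with 38 of 59 above 0, against 0.0016 over all genes. When arrays were scaled to a common median, it turned to −0.024 and that of all genes to −0.052. With that scaling 0 members were past 1.5-fold higher and Mrpl27 had 0.49.

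Mrpl27 had a signal of 617 with Stat5 siRNA and 410 with control siRNA at 30 min, a log2 ratio of 0.59. At 2 h it had 458 with Stat5 siRNA and 432 with control siRNA, and 522 without IL-3. Of its arrays, the 30 min Stat5 siRNA one was the highest and the 30 min control siRNA one the lowest, so the difference is made at both ends. The next highest genes were Mrps9 (0.47), Mrpl21 (0.39), Mrpl1 (0.38), Mrps2 (0.33) and Mrpl37 (0.31), and for Mrps2 the value is a bound. The lowest were Mrpl12 (−0.36), which besides its place in the stalk of the large subunit is known to bind the mitochondrial RNA polymerase in human cells, Mrps24 (−0.30) and Mrpl20 (−0.25). Mrpl41 ranks between the last 2 with −0.26, but this is the median of bounds from 2 probe sets of opposite sign (0.34 and −0.87), so no direction is read from it.

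At 2 h of IL-3, Stat5 siRNA cells again differed little from control siRNA cells. Of 63 measured members, 1 (Mrps35) was 1.5-fold or more higher and 1 (Mrps6) was 1.5-fold or more lower, which is 1.59% each, beside 3.23% and 3.03% of 7687 genes. The median was 0.075, with 41 of 63 above 0, against 0.0070 over all genes. It remained above 0 under each scaling, between 0.065 and 0.17. The median over all genes was 0.055 where arrays were scaled to a common median and the members had 0.17. With arrays scaled to a common median, 3 members were 1.5-fold or more higher (Mrpl2, Mrps35 and Mrps22) and 0 were lower, Mrps6 then having −0.56.

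Both of these genes were also past 1.5-fold between 2 h of IL-3 and no IL-3 in control siRNA cells. Mrps35 had 270 with Stat5 siRNA, against 177 with control siRNA, a log2 ratio of 0.61. Mrps6 had 249, against 381, a ratio of −0.61. Each Stat5 siRNA signal thus lay between the unstimulated signal (391 for Mrps35, 211 for Mrps6) and the 2 h control siRNA signal. The control siRNA array at 2 h enters both this comparison and that with unstimulated cells, so a deviation of that 1 array would appear in both with opposite sign. At 30 min, on other arrays, the ratios of Stat5 to control siRNA were 0.13 for Mrps35 and −0.14 for Mrps6.

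Below these, Mrpl2 had 249 with Stat5 siRNA and 168 with control siRNA (0.57), and Mrps22 had 186 and 130 (0.51). Mrpl35 and Mrps7 had ratios of 0.43 each. Mrpl28 (−0.38), Mrps12 (−0.26), a protein of the decoding centre, and Mrpl43 (−0.23) were the lowest after Mrps6. Mrpl1, which belongs to the mobile stalk at the tRNA exit side of the ribosome, had 0.38 at both 30 min and 2 h. Both of its probe sets on U74B showed it: the first had 192 and 168 with Stat5 siRNA, against 148 and 139 with control siRNA, and the second 198 and 186, against 152 and 132. The Stat5 siRNA signals of Mrpl1 were above all control siRNA signals in both probe sets, the unstimulated 159 and 176 included. The comparisons at 30 min and at 2 h share no array. Across the 59 members measured in both, their log2 ratios had a Pearson correlation of 0.24 and a Spearman correlation of 0.23, and 36 (61.0%) had the same sign, beside 0.22, 0.17 and 55.9% across all 7252 genes. These are correlations across genes of single arrays and have no p-value.

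The change between 30 min and 2 h of IL-3 can be taken within each siRNA from arrays that do not overlap. In Stat5 siRNA cells, 5 of 61 members were 1.5-fold or more higher at 2 h (Mrpl17, Mrpl50, Mrpl20, Mrpl35 and Mrps2) and 1 was lower (Mrps35), beside 6.29% higher and 6.2% lower of 7805 genes. In control siRNA cells, 2 of 60 were higher (Mrps2 and Mrps6) and 2 lower (Mrps35 and Mrpl45), beside 6.73% higher and 7.99% lower of 7796 genes. Mrpl41 is in neither of these counts: its 2 probe sets had steps of at least 0.91 and of −0.68 there, with a median of 0.11. At 2-fold only Mrps35 was lower in control siRNA cells, where 1.62% of all genes were. The medians were 0.092 in Stat5 siRNA cells and 0.071 in control siRNA cells, against −0.020 and −0.021 over all genes. Both remained above 0 under each scaling. With arrays scaled to a common median they were 0.17 and 0.041, against 0.038 and −0.060 over all genes.

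Mrps2 was the 1 member past 1.5-fold upward in both, with a ratio of 0.59 in Stat5 siRNA cells and of 0.86 (at least 1.81-fold) in control siRNA cells. Mrps35 was the 1 past it downward in both, with −0.63 and −1.11. Mrpl17, a large subunit protein of the bacterial family, had 134 at 30 min and 227 at 2 h with Stat5 siRNA, and 148 and 214 with control siRNA, for steps of 0.76 and 0.53. Mrpl20 had steps of 0.67 and 0.45, Mrpl35 of 0.62 and at least 0.41, and Mrpl50 of at least 0.69 and at least 0.38, each "at least" resting on signals under the floor. All 4 large subunit genes were therefore higher at 2 h with either siRNA, and none of their steps differed by 1.5-fold between the siRNAs.

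**Figure D4:**
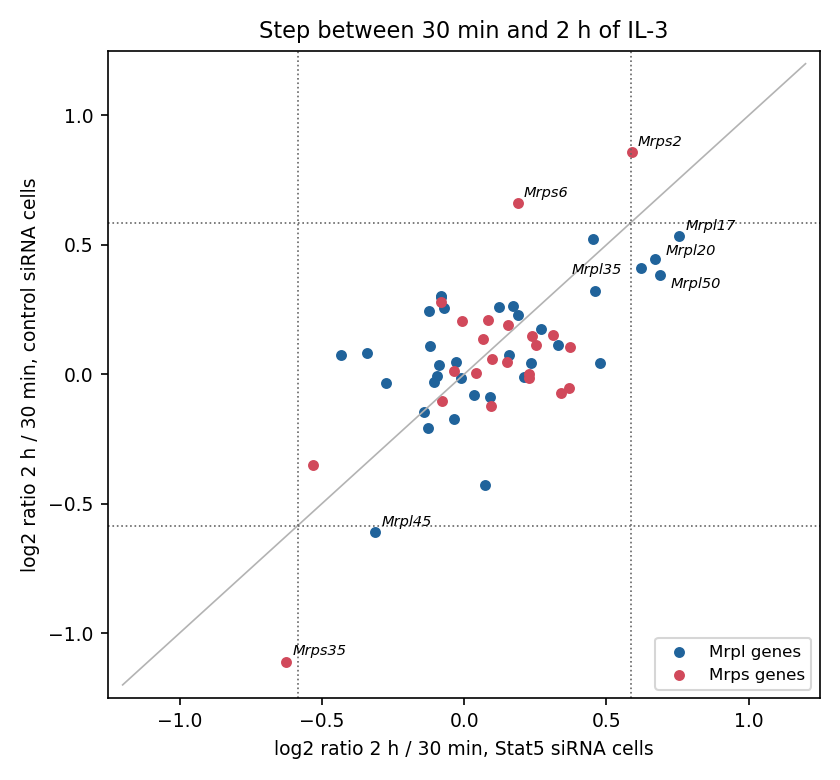
Log2 ratio of 2 h over 30 min of IL-3 for 58 member genes, in Stat5 siRNA cells (horizontal axis) and in control siRNA cells (vertical axis), which share no array. Dotted lines mark 1.5-fold and the grey line equal steps; Mrps2 lies beyond 1.5-fold at the upper right and Mrps35 at the lower left in both.

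Across the 58 members measured in both siRNAs, the steps had a Pearson correlation of 0.63 and a Spearman correlation of 0.48, and 37 (63.8%) had the same sign. Across all 7479 genes the values were 0.63, 0.54 and 68.4%, which are close to those of the members. Without Mrps35 the Pearson correlation of the members was 0.57. The difference between the steps, Stat5 siRNA minus control siRNA, had a median of 0.038, ran between −0.51 (Mrpl27) and 0.50 (Mrpl2), and passed 1.5-fold for none of the 58. Mrpl41 counted there with 0.22, from the medians of 2 opposed probe sets. Its U74A probe set had steps of 0.13 with Stat5 siRNA and at least 0.91 with control siRNA, and its U74C probe set at least 0.54 and −0.68. These differences have opposite signs, so none is read for this gene. By share of the lists, 1 of the 5 upward genes in Stat5 siRNA cells (20%) and 1 of the 2 in control siRNA cells (50%) was in both, beside 53.0% and 49.2% for all genes. Downward it was 1 of 1 (100%) and 1 of 2 (50%), beside 50.6% and 39.7% for all genes.

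The step in Stat5 siRNA cells also shares no array with the comparison of 2 h of IL-3 with no IL-3 in control siRNA cells. Between these, the members had a Pearson correlation of 0.67 and a Spearman correlation of 0.59, with 41 of 58 (70.7%) of the same sign, beside 0.59, 0.54 and 69.0% over 7491 genes. Mrps35, Mrps9 and Mrpl45, all lower at 2 h than without IL-3 in control siRNA cells, had steps of −0.63, −0.53 and −0.31 in Stat5 siRNA cells. Mrps2 and Mrps6, both higher there, had 0.59 and 0.19. Without Mrps35 the Pearson correlation was 0.62.

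No error between replicate cultures can be had, but genes with several probe sets show how far readings of the same gene part. For IL-3 at 30 min, of 2639 pairs, 295 lay within U74A, 794 within U74B and 142 within U74C, and the rest joined different designs. The sample titles do not say whether the designs received the same RNA. A deviation shared by the probe sets of 1 array is not seen within a design, so this spread is not the error of a ratio between arrays. From pairs of probe sets of the same gene on the arrays, the SD of a single log2 ratio was 0.24 for Stat5 over control siRNA at 30 min and 0.27 at 2 h. It was 0.27 for IL-3 at 30 min and 0.34 at 2 h, and for the step between the times it was 0.30 with Stat5 siRNA and 0.31 with control siRNA. Within these limits lay 47 of 59 members for the siRNAs at 30 min and 53 of 63 at 2 h, 47 of 59 for IL-3 at 30 min and 44 of 60 at 2 h, beside 71.0%, 69.5%, 74.6% and 63.6% of all genes. Most ratios of single members thus lay within the SD of a single ratio, as did most ratios of all genes. On U74B, which reads Mrps35, Mrps9 and Mrps6, the SD at 2 h of IL-3 was 0.33, against 0.21 at 30 min, and 20.8% of its probe sets were past 1.5-fold at 2 h, against 12.8% on U74A. U74C, which gives few of the members' values, had an SD of 0.40 and 21.0% past 1.5-fold. The lowest correlation between arrays, 0.893, was also on U74B. The ratios of Mrps35 (−1.14), Mrps9 (−0.64) and Mrps6 (0.86) exceed that SD, and the part of the U74B arrays in them was not tested.

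Members read by more than 1 probe set show how far such readings can part. For Mrpl41, a large subunit protein particular to mitochondria, the U74A probe set had 145, 111 and 224 in control siRNA cells at 0, 30 min and 2 h, and 152 and 166 in Stat5 siRNA cells at 30 min and 2 h. The U74C probe set had 36.4, 219 and 136 in control siRNA cells, and 39.6 and 174 in Stat5 siRNA cells. At 30 min of IL-3 the first had a log2 ratio of −0.27 and the second one of 0.87, both as bounds, so no direction is given for this gene. Mrpl50, by contrast, had higher signals at 2 h in each of 3 probe sets: with Stat5 siRNA the brightest had 843 at 2 h and 504 at 30 min, and with control siRNA it had 752 and 573. Mrps25 had 2 probe sets with ratios of 0.39 and 0.21 for Stat5 over control siRNA at 30 min, while a cross-binding one that did not enter had −0.31. The 2 that entered parted at 2 h of IL-3, with −0.14 and 0.23. At 2 h of IL-3 the 2 probe sets of Mrpl3 had −0.31 and, as a bound, at least 0.11, those of Mrpl18 had −0.26 and −0.18, and Mrps11 had −0.06 in the 1 that was measured then. The probe set that gave the value of Mrps18a had 272 at 2 h and 203 without IL-3 (0.43), while a cross-binding one that did not enter had 145 and 239 (−0.72).

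**Figure D5:**
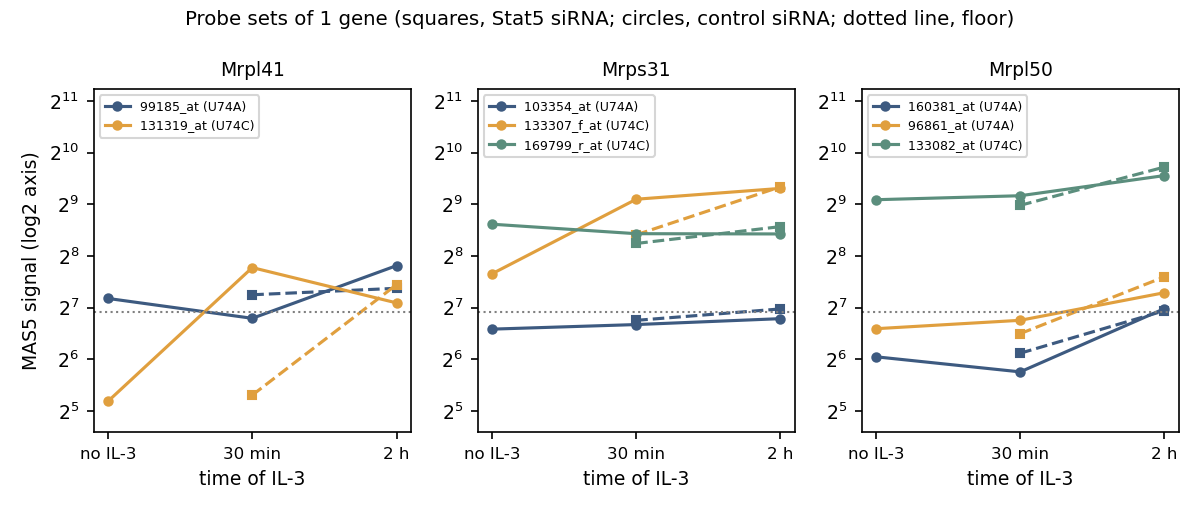
MAS5 signal on a log2 axis by time of IL-3 for every probe set that reached the floor (dotted line) of Mrpl41, Mrps31 and Mrpl50, with squares and dashed lines for Stat5 siRNA and circles and solid lines for control siRNA. The 2 probe sets of Mrpl41 cross, the 3 of Mrps31 lie apart, and the 3 of Mrpl50 run in parallel upward to 2 h.

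Genes named Mrpl and genes named Mrps had similar medians. The names stand in for the subunits only in part, since Mrps18a and Mrps30 are located in the large one. At 2 h of IL-3 the median was 0.061 for 37 Mrpl genes and 0.037 for 23 Mrps genes, and for Stat5 over control siRNA at 2 h it was 0.076 for 38 and 0.069 for 25. At 2 h of IL-3, 2 of 23 Mrps genes were past 1.5-fold higher and 2 lower (8.70% each), near the 7.89% and 8.27% of all genes, while of 37 Mrpl genes 0 were higher and 1 lower (2.70%). Proteins of bacterial families had a median of 0.0033 over 35 genes, and those particular to mitochondria had 0.085 over 23. The measured genes Mrps18a and Mrps36 were placed in neither list. Of the bacterial families Mrps6 and Mrps2 were past 1.5-fold upward and Mrps9 downward, and of the mitochondria-particular proteins Mrps35 and Mrpl45 downward. Subunits with other names were measured for 3 genes, with ratios at 2 h of IL-3 of 0.48 (Gadd45gip1), 0.45 (Ptcd3) and 0.15 (Dap3, a GTP-binding small subunit protein).

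Other genes of mitochondrial translation are read here at 2 h of IL-3 beside the same background of 7.89% higher and 8.27% lower. Of 11 measured translation factors, 1 was 1.5-fold higher at 2 h of IL-3 and 0 lower: Oxa1l, the insertase that receives new proteins at the inner membrane, with a log2 ratio of 0.73. Of 16 mitochondrial tRNA synthetases and amidotransferase subunits, 1 was higher (Gatc, 0.60) and 0 lower by these values, with Vars2 at 0.55. Cars2 had −0.50 as a bound, since its 2 h signal lay under the floor, so it may lie past 1.5-fold lower. Of 12 assembly factors, 0 were higher by these values and 1 lower (Mterf4, −0.75). Rcc1l had at least 0.56, since its signals at 0 and 30 min lay under the floor, so it may lie past 1.5-fold higher. Of 6 genes of mitochondrial transcription and replication, 0 passed 1.5-fold, and the DNA helicase gene Twnk had 0.58 and the transcription factor gene Tfb2m 0.53. Of 18 import and chaperone genes, 3 were higher, namely Timm8a1 (0.92), which guides proteins through the intermembrane space, and the inner membrane channel genes Timm17a (0.72) and Timm23 (0.64), and 1 was lower, the chaperonin gene Hspd1 (−0.71). The 3 of 18 are 16.7% of that list, and the 1 of 11 translation factors 9.09%. The list medians were 0.014, −0.021, 0.15, 0.023 and 0.096 in this order, against −0.033 over all genes.

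With Stat5 siRNA at 2 h, 1 of 18 import and chaperone genes was past 1.5-fold higher (Hspd1, 0.77; 5.56%, beside 3.23% of all genes) and 0 of the translation factors, synthetases, assembly factors and transcription genes were past it in either direction. The ribosome of the cytosol can be set beside that of mitochondria there. Of 23 measured cytosolic ribosomal protein genes 4 were above 0 in that comparison, with a median of −0.18. Of 63 mitochondrial ones 41 were above 0, with a median of 0.075. For Stat5 over control siRNA at 30 min the 2 sets were alike, with medians of 0.068 (15 of 24 above 0) and 0.070 (38 of 59). For 2 h of IL-3 over no IL-3 the medians were 0.037 and 0.049. In the step from 30 min to 2 h, which uses the same 2 h arrays, the cytosolic median was −0.11 with Stat5 siRNA and 0.14 with control siRNA. The mitochondrial medians were 0.092 and 0.071. Whether the 2 sets of genes differ was not tested.

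The members' common course was nearly flat. Each of 71 probe sets was centred on its own mean over the 5 conditions, and the median over probe sets was −0.014 at 30 min and 0.070 at 2 h with Stat5 siRNA, against −0.022 at 0, −0.070 at 30 min and 0.00089 at 2 h with control siRNA, a range of 0.14. Of 8172 other genes, the course most like it over the 5 conditions was that of Emg1, a methyltransferase of cytosolic ribosome assembly, and Mitd1, both with a Pearson correlation of 0.997, followed by Zfp280c with 0.996. With 5 points and so many genes such values are a description only.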

How the data were processed

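Expression was measured on 15 arrays of 3 designs, 1 per condition and design, grouped by sample title. The deposited values are linear intensity values (MAS5 signals) that the authors computed with MAS5, per the submitters' processing notes. Detection calls and probe-level files were not used here, and array number limits the precision. Arrays were scaled to a common trimmed mean (2% left out at each end). Medians, ratios and correlations were computed with Python 3.11.15, numpy 2.4.6, pandas 2.3.3 and scipy 1.17.1, and the ratio step was tested on simulated data. With 1 array per condition there is no test, and differences were selected at 1.5-fold.

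By the platform annotation, 29131 non-control probe sets had 1 gene symbol, 724 had several symbols and 6846 had no symbol. No symbol of a member needed updating. Promoters came from RefSeq (GRCm38.p6), which was used for names and sequence only. The members, gene lists and alternatives were chosen with earlier results of these data known. 2 corrections to the lists followed after the values were seen: Mrps28 was moved to, and Mrps24 added to, the bacterial families. Named are members past 2-fold, the 6 highest and 4 lowest against unstimulated or control siRNA cells, members with several probe sets, and up to 4 genes per list; Mrpl17 and Mrpl36 were named after their values were seen. The alternatives were a halved, doubled or absent floor, low signals not raised, median or quantile scaling, the brightest probe set, U74A and U74B only, no cross-binding probe sets, and a 2-fold threshold. RNA quality controls, as 3′ to 5′ signal ratios, were 1.00 to 1.19 for actin, 0.728 to 0.858 for Gapdh and 2.64 to 5.49 for the transferrin receptor.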

Additional observations from a re-analysis of the deposited data

Results flagged for a closer look

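Probe sets that can bind other transcripts did not enter the gene values where the gene had another, and 3 of these were 1.5-fold or more higher after IL-3 or with Stat5 siRNA. The first, of Mrps31, a small subunit protein particular to mitochondria, had signals on U74C of 201, 547 and 633 in control siRNA cells at 0, 30 min and 2 h of IL-3, and of 340 and 647 in Stat5 siRNA cells at 30 min and 2 h. Its log2 ratio to unstimulated cells was 1.44 at 30 min and 1.65 at 2 h, and that of Stat5 to control siRNA at 30 min was −0.69. Of the other probe sets of Mrps31, the 2 that reached the floor did not show this: the U74A one lay between 95.8 and 126 on all arrays, and the second U74C one had 345 at 30 min and 343 at 2 h, against 391 without IL-3.

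A U74C probe set of Mrps10 had 335 with Stat5 siRNA and 219 with control siRNA at 2 h, a log2 ratio of 0.61, while the probe set used for this gene had 0.18 as a bound. A U74C probe set of Mrpl38 had 309 at 30 min of IL-3 and 206 without, a ratio of 0.59, while the U74A probe set used for this gene had −0.20. In the other direction, a cross-binding U74A probe set of Mrps18a had 145 at 2 h of IL-3 and 239 without, a ratio of −0.72, while the one used for this gene had 0.43.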

How the results depend on the processing

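The medians of the members stayed within −0.071 to −0.038 for IL-3 at 30 min, −0.011 to 0.077 for IL-3 at 2 h, −0.024 to 0.076 and 0.053 to 0.17 for the siRNAs at 30 min and 2 h, and 0.082 to 0.17 and 0.041 to 0.083 for the steps with Stat5 and control siRNA. Counts past the threshold are small and moved with the floor. For IL-3 at 30 min, 0 higher became 2 with the floor halved, 1 with low signals not raised and 3 without a floor, where 1 was lower. For IL-3 at 2 h, 2 higher became 5 with the floor halved, 1 with it doubled, 4 with low signals not raised, 9 without a floor and 0 at 2-fold, and 3 lower became 1 with the floor doubled and 1 at 2-fold. For the siRNAs at 30 min, 1 higher became 0 with median scaling and 0 at 2-fold, and 0 lower became 1 with the floor halved, 1 with low signals not raised and 2 without a floor. For the siRNAs at 2 h, 1 higher became 0 with the floor doubled, 3 with median scaling and 0 at 2-fold, and 1 lower became 2 without a floor, 0 with median scaling and 0 at 2-fold. The cause of the change with median scaling was not tested; a lower floor admits more dim probe sets, and a higher one shrinks ratios. Of 1696 values of named genes, 1649 kept within their spread, 47 moved and 0 past the threshold changed sign; Mrps35 at 2 h of IL-3 was −0.71 with the floor doubled, a bound, and Mrpl41 at 30 min of IL-3 was 1.10 with low signals not raised and −0.27 on U74A and U74B. No array could be left out, since each condition has 1. No paired analysis was possible because each condition has 1 array per design and no result comes from a test.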
